A study of Mus musculus with 12 samples.

Results

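The core circadian clock loop was followed in hearts and kidneys of mice without the nucleoside transporter mENT1, through 8 genes: Arntl, Clock, Npas2, Per1, Per2, Per3, Cry1 and Cry2. They were taken by gene name, or a known synonym, among the non-control probes of the arrays, which gave 14 of 41174 probes and 8 of 27670 genes. By the series text, RNA came from 3 mENT1 knockout mice and 3 wild type mice of FVB/N background, and each sample was read on 1 single-colour (Cy3) Agilent array. The groups were knockout (KO) heart, wild type (WT) heart, KO kidney and WT kidney, with 3 arrays each, lettered a, b and c. mENT1, the product of Slc29a1, carries nucleosides such as adenosine across the cell membrane. The labels state no age, sex, hour of tissue collection or light schedule, nor how the allele was made or whether it is limited to a cell type, and nothing ties a lettered heart to a lettered kidney. The genes were chosen with the genotype comparisons of these arrays known, so their knockout and wild type values are given as a description of each array and not as a test.

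The mammalian clock is a feedback loop of transcription that runs in nearly every cell. ARNTL (also called BMAL1) pairs with CLOCK, or with its relative NPAS2, and the pair switches on Per and Cry genes through E-boxes. PER and CRY proteins then gather, block the pair and are degraded, so Arntl and Per transcripts peak at roughly opposite times of day in most tissues, heart and kidney included. A second loop of nuclear receptors acts on Arntl, with NR1D1 and NR1D2 as repressors and the ROR proteins as activators. The PAR bZIP factors DBP, TEF and HLF, and their competitor NFIL3, act through D-boxes.

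These sites are shown because the genes that carry them stood apart on some arrays below. The sequences are from RefSeq, build GRCm38.p6, read 5′ to 3′ on the strand of the gene, with the searched motifs in capitals. The windows reached from 250 bases before to 50 bases after each start, and 7 of the 8 genes were in the promoter table. The E-box was searched as CACGTG, the E-prime box as CACGTT, the D-box as TTATGTAA and the RORE, the site of NR1D and ROR proteins, as TAGGTNA, each on both strands.
Arntl, chr7:113207493-113207522, plus strand: ttggtcggaaagTAGGTTAgtggtgcgaca
Arntl, chr7:113207529-113207558, plus strand: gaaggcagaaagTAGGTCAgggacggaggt
Nfil3, chr13:52981040-52981071, minus strand: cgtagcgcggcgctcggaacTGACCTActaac
Per1, chr11:69098763-69098808, plus strand: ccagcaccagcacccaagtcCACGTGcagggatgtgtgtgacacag
Per3, chr4:151044796-151044890, minus strand: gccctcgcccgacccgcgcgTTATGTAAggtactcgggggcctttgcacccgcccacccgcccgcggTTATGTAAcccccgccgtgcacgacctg
Cry1, chr10:85185089-85185153, minus strand: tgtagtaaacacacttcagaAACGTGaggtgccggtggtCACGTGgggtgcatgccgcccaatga
Cry2, chr2:92434210-92434255, minus strand: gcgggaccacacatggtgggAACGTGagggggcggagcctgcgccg
Ciart, chr3:95882247-95882364, minus strand: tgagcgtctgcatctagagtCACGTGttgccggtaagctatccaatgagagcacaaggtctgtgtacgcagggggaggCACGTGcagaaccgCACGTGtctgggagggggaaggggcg
Of all 32851 windows in the table, 7.15% held the E-box, 4.68% the E-prime box, 0.938% the D-box and 8.29% the RORE. Arntl and Nfil3 thus carry the RORE, Per3 carries 2 D-boxes, and Per1, Cry1, Cry2 and the repressor gene Ciart carry E-boxes or E-prime boxes. Among the linked genes in the table, Tef and Bhlhe41 held an E-box and Nr1d1 an E-prime box, and no searched motif lay in the windows of Clock, Npas2, Dbp, Hlf and Nr1d2. A match, or its absence, is a description of these letters only.

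The arrays read the tissues they were labelled with. The 8 heart markers, such as Myh6 and Tnnt2, had medians of 6.20 to 6.91 in hearts against -6.10 to -5.28 in kidneys, as log2 signal relative to the 75th percentile of the array, the scale of all levels and differences below. The 8 kidney markers, such as Umod, had medians of -8.81 to -6.65 in hearts against 5.93 to 6.44 in kidneys. Xist, the RNA of the inactive X, was above background on KO heart a (1.70), KO heart b (1.69) and KO kidney a (1.21), while the Y-linked genes were above background on the other 9 arrays. With Xist signal on 2 KO hearts and on 1 KO kidney, the KO hearts and KO kidneys as labelled cannot all come from the same 3 mice. Slides held groups unevenly, with KO kidney a alone on slide 1, KO kidneys b and c with WT kidneys a and b on slide 2, the KO hearts with WT kidney c on slide 3, and the WT hearts on slide 4. The 5 thymus markers summed to 73.2 and 150 times the 75th percentile on KO hearts a and b, against 0.121 to 0.301 on the other arrays. The 5 lung markers summed to 190 on KO heart a and to at most 1.37 elsewhere. Liver markers summed to 2.72, 3.36 and 4.63 in KO hearts against 0.409, 0.244 and 0.154 in WT hearts, and to 4.59, 1.67 and 0.962 in KO kidneys a, b and c against 0.751, 0.913 and 0.846 in WT kidneys.

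Slc29a1, the targeted gene, was low wherever the label said knockout. It read 1.38, 0.59 and 1.53 in KO hearts a, b and c, against 3.15, 3.23 and 3.36 in WT hearts. In kidney it read -1.43, -1.30 and -1.43 in KO, against 1.51, 1.27 and 1.62 in WT. The groups do not overlap in either tissue. The authors' table of processed values runs the other way: each of its columns followed the array with the same letter and the other genotype, at a correlation of at least 0.9998 across probes. With that table's column names every knockout minus wild type sign below would be turned, and the directions here rest on the names of the scanner files.

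In kidney, the activator genes and the Per genes split the 3 knockouts. KO kidneys b and c had high Arntl and Npas2 and low Per1, Per2, Per3 and Cry2, while KO kidney a lay with the WT kidneys, or beyond them on the opposite side. Clock and Cry1 were nearly equal on the 3 KO kidneys. For the other 6 genes KO kidney a differed from KO kidneys b and c by at least 1.39.

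Arntl, the gene of the obligate activator, read -1.64, 0.996 and 1.30 in KO kidneys a, b and c, against -2.01, -2.47 and -1.49 in WT kidneys. KO kidneys b and c lay 7.91-fold and 9.78-fold above the WT mean, and KO kidney a lay inside the WT range. Npas2, whose protein can stand in for CLOCK, read -5.77, -2.12 and -1.80 in KO kidneys, against -4.69, -5.77 and -4.34 in WT kidneys, of which WT kidney b was not well above background. Here KO kidneys b and c were 7.06-fold and 8.78-fold above the WT mean and KO kidney a was level with the lowest WT kidney. Clock, the gene of the usual partner, read 0.98, 1.22 and 1.26 in KO kidneys, against 0.97, 1.25 and 1.01 in WT kidneys. All 6 kidneys lay within 0.28 of each other for Clock.

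Per2, a repressor that holds CRY proteins in the complex, read -0.15, -4.16 and -3.46 in KO kidneys, against -0.69, -0.67 and -1.07 in WT kidneys. KO kidney a was above every WT kidney, and KO kidneys b and c were 10.2-fold and 6.29-fold below the WT mean. Per3, the gene with a pair of D-boxes above, read -0.87, -4.84 and -4.62 in KO kidneys, against -1.31, -2.71 and -1.72 in WT kidneys. The same split appeared, with KO kidneys b and c 7.63-fold and 6.55-fold below the WT mean and KO kidney a 2.06-fold above it. Per1, which also answers quickly to light and hormones, read 1.65, -0.49 and -0.77 in KO kidneys, against 0.35, 0.24 and 0.37 in WT kidneys. The WT kidneys lay within 0.13 of each other, KO kidney a was 2.51-fold above their mean, and KO kidneys b and c were 1.76-fold and 2.13-fold below it.

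The Cry genes, whose proteins are the main brake on ARNTL and CLOCK, did not move as a pair. Cry2 read 0.20, -1.46 and -1.19 in KO kidneys, against -0.16, -0.47 and -0.30 in WT kidneys, so it split like the Per genes. Cry1 read -4.01, -4.10 and -3.88 in KO kidneys, against -4.94, -5.60 and -5.34 in WT kidneys, with WT kidney b not well above background. On the brightest probe of each gene, Cry1 was the only one of the 8 whose KO and WT kidneys did not overlap. Its excess over the WT mean was 2.44-fold, 2.29-fold and 2.67-fold on KO kidneys a, b and c, nearly the same on all 3. Non-overlap was met by 21.5% of all 17217 kidney genes tested.

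**Figure D1:**
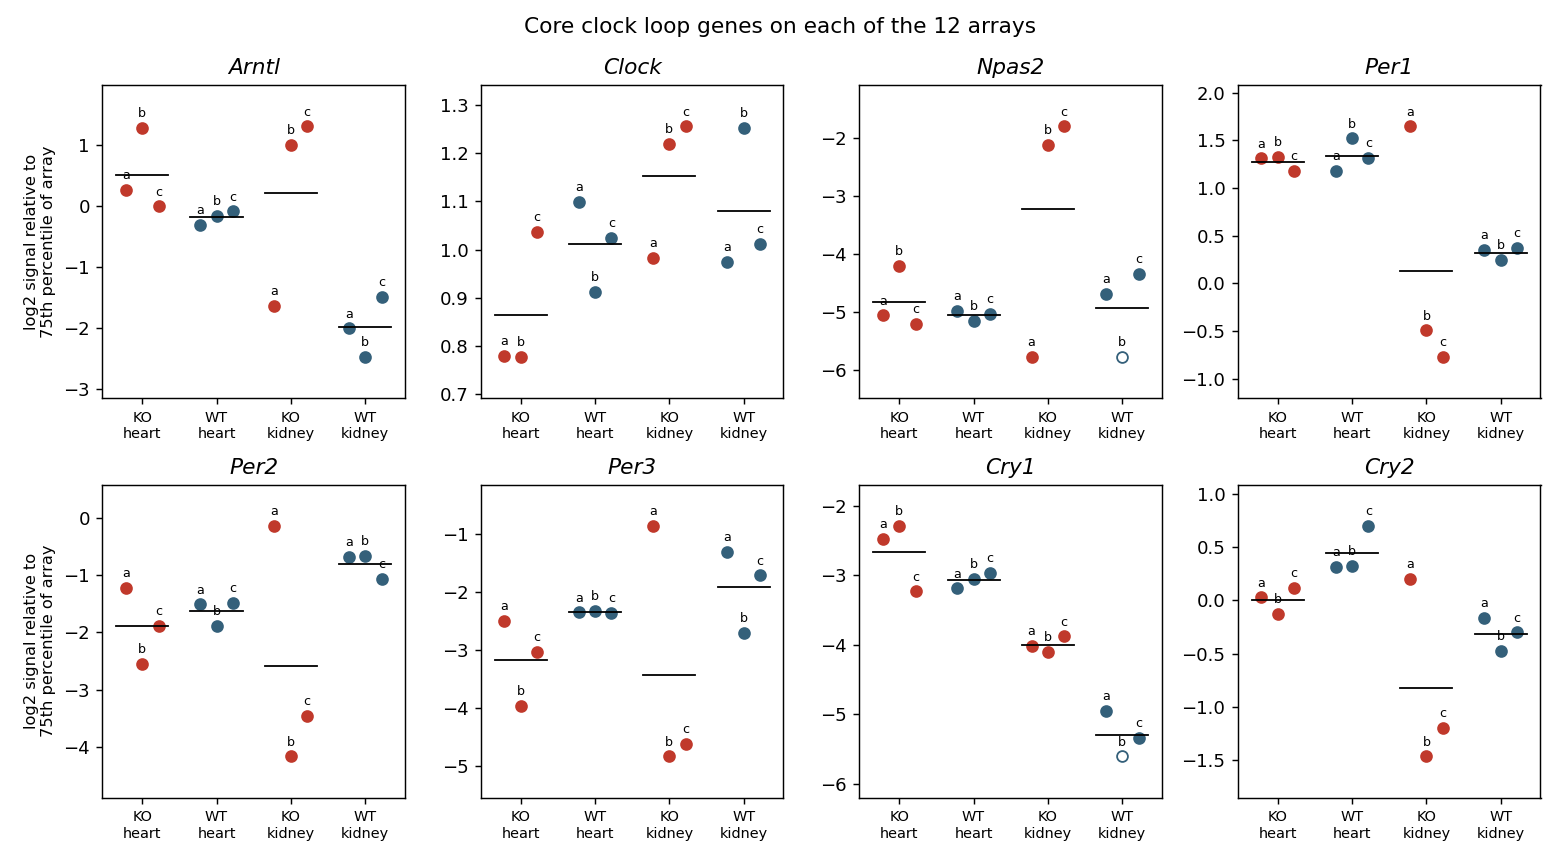
Log2 signal relative to the 75th percentile of the array (vertical axes, a scale of its own in each panel) for the 8 core loop genes in KO heart, WT heart, KO kidney and WT kidney. Each point is 1 array with its letter, lines are group means and open points were not well above background; KO kidneys b and c stand away from KO kidney a for all genes but Clock and Cry1.

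The spread within the KO kidneys was larger for these genes than for most. The range over KO kidneys a, b and c had a median of 2.68 over the 8 genes, against 0.48 over all genes tested. In WT kidneys the medians were 0.53 and 0.42. A range over 2 was reached by 5 of the 8 genes in KO kidneys, where 4.36% of all genes reached it, and by 0 in WT kidneys, where 1.24% did. The spread was part of what chose these genes, so these values carry no test. KO kidney a was not a quiet array in general: 14.8% of all genes lay more than 1 from the WT mean there, against 5.97% on KO kidney b and 5.38% on KO kidney c. For the core loop the order was turned, with 3, 6 and 6 of the 8 genes past 1. KO kidney a also had the highest liver marker sum of the kidneys, and its part in the clock values was not tested. It is the KO kidney with Xist signal and the one alone on its slide, so sex, slide and the level of the clock genes cannot be told apart among the 3 KO kidneys.

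The comparison of KO kidney with WT kidney as group means called 0 of the 8 genes at an adjusted p under 0.05 (limma, Benjamini-Hochberg), where 0.116% of 17217 genes were called. At an unadjusted p under 0.05 it was 2 of 8, Arntl and Cry1, where 13.1% of all genes were. Since this comparison chose the genes, nothing is read from the counts. KO minus WT was 2.21 ± 0.77 for Arntl (SE, n = 3 each, limma adjusted p = 0.289) and 1.30 ± 0.21 for Cry1 (limma adjusted p = 0.074). For Per2 it was -1.78 ± 0.97, with KO kidneys at -2.59 ± 2.15 and WT kidneys at -0.81 ± 0.22 (SD, n = 3). For Npas2 it was 1.71 ± 1.04 and for Per3 -1.53 ± 1.05. For Per1, Cry2 and Clock it was -0.19 ± 0.60, -0.51 ± 0.42 and 0.07 ± 0.16. Slide 2 holds KO kidneys b and c and WT kidneys a and b. Within it, KO minus WT was 3.39 for Arntl, 3.27 for Npas2 and -3.13 for Per2. These 3 genes were called, where 223 of 17636 genes were. A fit with slide as a block is the same comparison, since KO kidney a and WT kidney c are the only kidneys on their slides. Leaving out KO kidney a, the array with Xist signal, gave 2 calls, Arntl at 3.14 and Per2 at -3.00, where 81 of 17600 genes were called. These subsets hold the KO kidneys that lie apart, and that was known when they were fitted, so their calls are not read as a test.

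Several genes linked to the loop split the KO kidneys in the same way. A list of 36 further clock genes was drawn up: the second loop, D-box factors, other repressors, partners, kinases and ubiquitin ligases, and outputs. Of the 34 tested in kidney, 0 were called, where 0.116% of all genes were, and 8 passed an unadjusted p under 0.05, where 13.1% did. There were 11 higher and 23 lower in KO. Their median change was -0.18, against -0.07 for all genes. On KO kidneys a, b and c, 9, 6 and 7 of the 34 lay above every WT kidney, where 28.7%, 24.9% and 24.5% of all genes did. Below every WT kidney lay 13, 20 and 18, where 42.5%, 31.9% and 32.7% of all genes did.

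Dbp, an output gene driven by ARNTL and CLOCK, read 6.09, 2.07 and 2.15 in KO kidneys, against 6.34, 6.80 and 6.08 in WT kidneys. KO kidneys b and c were 20.1-fold and 19.0-fold below the WT mean, while KO kidney a was inside the WT range. The Dbp probe was saturated on KO kidney a and WT kidney a, so both folds may be understated. The relatives Tef and Hlf were lower on all 3 KO kidneys, with Tef at 2.82, 1.77 and 2.14 against 3.08, 3.27 and 3.08 in WT. Hlf read 2.95, 2.03 and 2.14 in KO kidneys, against 3.18, 3.46 and 2.96 in WT kidneys. Nfil3, which binds the D-box as a repressor, read -0.16, 1.25 and 1.51 in KO kidneys, against -1.82, -1.22 and -1.92 in WT kidneys. Thus Nfil3 was high on all 3 KO kidneys, more so on b and c. KO minus WT was -2.97 ± 1.04 for Dbp (limma adjusted p = 0.298) and 2.52 ± 0.46 for Nfil3 (limma adjusted p = 0.101). In all, 4 of the 4 D-box factors passed an unadjusted p under 0.05, as 13.1% of all genes did, and 0 were called, where 0.116% of all genes were.

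In the second loop, Nr1d2, a repressor of Arntl, read 2.11, 0.25 and -0.15 in KO kidneys, against 1.84, 2.22 and 1.69 in WT kidneys, a split like that of Per2. Nr1d1, the closest relative of Nr1d2, read 0.14, 0.00 and -0.01 in KO kidneys, against 0.56, 0.53 and 0.71 in WT kidneys. It was lower on all 3 KO kidneys and did not separate KO kidney a from the others. The repressor gene Bhlhe40 read 3.27, 1.23 and 1.04 in KO kidneys, against 2.49, 2.19 and 1.96 in WT kidneys, with KO kidney a above and KO kidneys b and c below every WT kidney. Ciart, a repressor gene with 3 E-boxes above, read -3.46, -9.03 and -8.93 in KO kidneys, against -3.02, -2.92 and -3.39 in WT kidneys. On KO kidneys b and c Ciart was not well above background, so only 1 of 3 KO kidneys measured it.

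**Figure D2:**
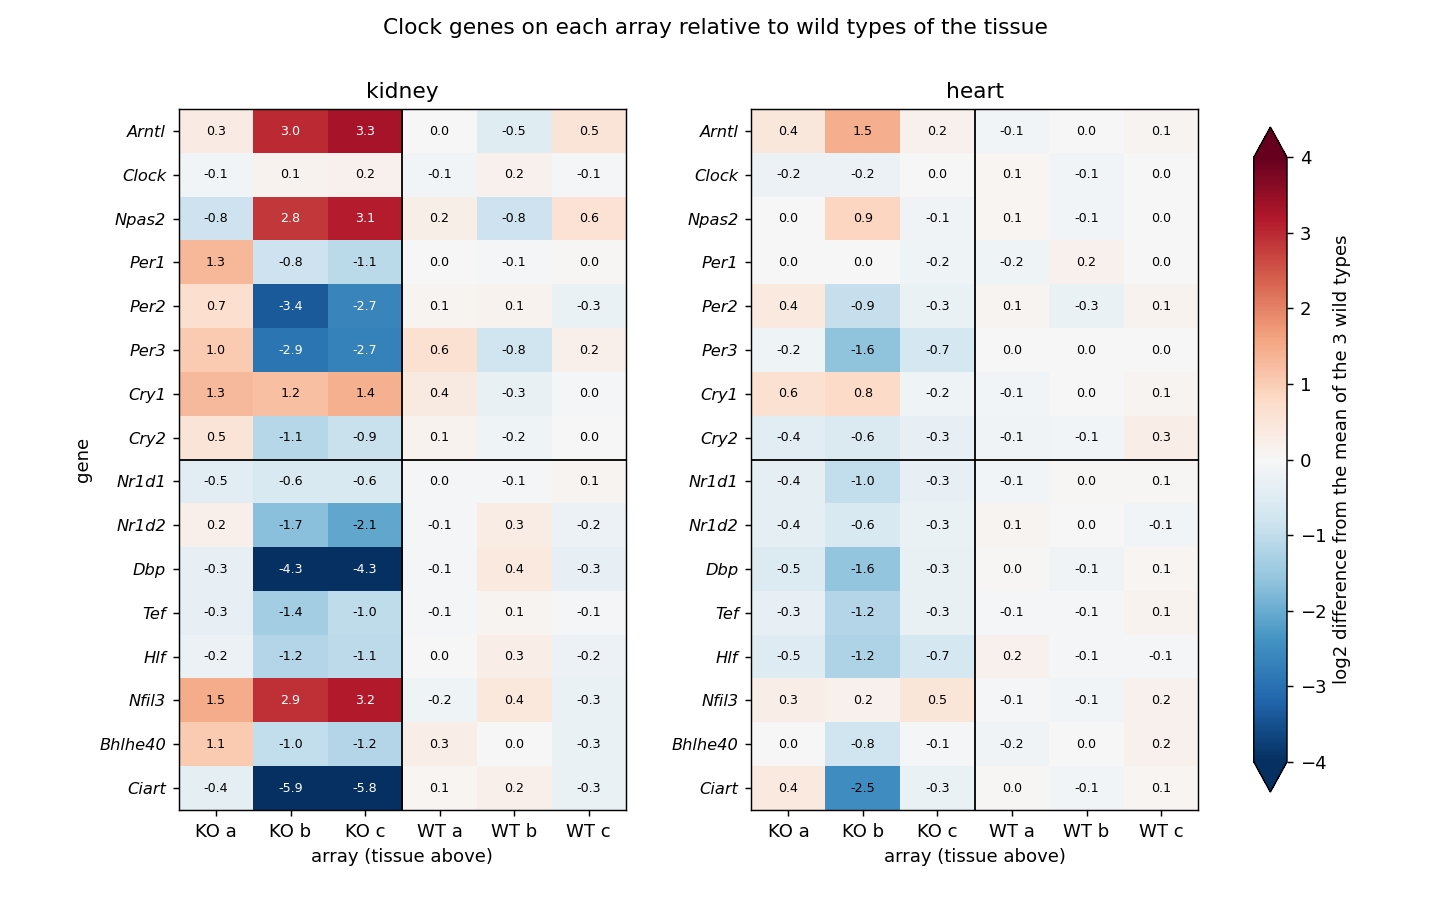
Log2 difference of each array (columns: KO a, b, c, then WT a, b, c) from the mean of the 3 wild types of its tissue, for the 8 core loop genes (upper rows) and 8 linked clock genes (lower rows), kidney on the left and heart on the right. Colours saturate at 4 in either direction and Ciart was not well above background on KO kidneys b and c. KO kidneys b and c show high Arntl, Npas2 and Nfil3 and low Per, Cry2, Dbp and Ciart. KO heart b shows a smaller shift in some of these genes.

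To place each array as a whole, the mean deviation of Per1, Per2 and Per3 from the WT mean was taken from that of Arntl, Clock and Npas2. A positive index means activator genes high and Per genes low. The index was -1.21 on KO kidney a, 4.35 on KO kidney b and 4.35 on KO kidney c, against -0.21, -0.14 and 0.35 on the WT kidneys. In heart it was 0.00, 1.55 and 0.39 on KO hearts a, b and c, against 0.03, -0.04 and 0.01 on the WT hearts, which lay close together. Median scaling cannot move this index, and over 9 other settings KO kidney a stayed between -1.48 and -0.87, KO kidney b between 2.87 and 5.27, and KO kidney c between 1.42 and 5.36. KO heart b ran from 1.05 to 2.01 and KO heart c from 0.20 to 0.50, while KO heart a ran from -0.19 to 0.17. The index is a description of these arrays, made of genes chosen on them.

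**Figure D3:**
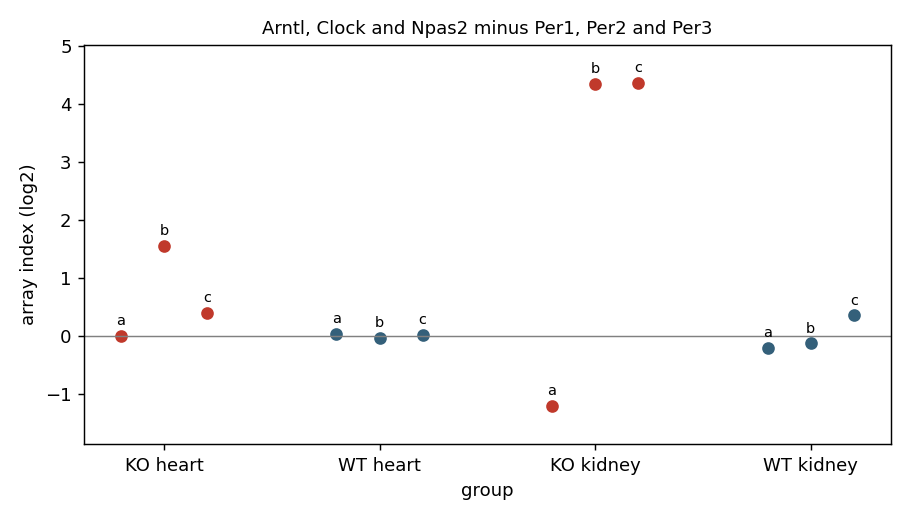
Array index in log2 units (vertical axis), the mean deviation of Arntl, Clock and Npas2 minus that of Per1, Per2 and Per3 from the wild types of the tissue, for KO heart, WT heart, KO kidney and WT kidney. Each point is 1 array with its letter; KO kidneys b and c sit at 4.35 and KO kidney a at -1.21, with the WT kidneys between -0.21 and 0.35.

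Heart showed part of the pattern mainly on 1 array, KO heart b, and to a smaller degree. Per1 on KO heart b lay inside the WT range, and Cry2 was low on all 3 KO hearts. KO heart b also had the highest thymus marker sum, at 150. KO heart b had the highest Arntl and Npas2 and the lowest Per2 and Per3 of the 6 hearts. On KO hearts a and c, 0 core loop genes lay more than 1 from the WT mean, but most lay outside the WT range. On KO heart a, 3 lay above every WT heart, 3 below and 2 within the range. There 28.4% of all genes lay above and 47.6% below. On KO heart c, 1 core loop gene lay above every WT heart, 6 below and 1 within the range. There 27.2% of all genes lay above and 25.1% below. Arntl read 0.26, 1.28 and -0.01 in KO hearts a, b and c, against -0.31, -0.16 and -0.09 in WT hearts. All 3 KO hearts were above the WT hearts for Arntl, by 1.36-fold, 2.76-fold and 1.13-fold over the WT mean. Npas2 read -5.06, -4.21 and -5.20 in KO hearts, against -4.99, -5.16 and -5.04 in WT hearts. Only KO heart b was high.

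Among the repressors, Per3 read -2.51, -3.97 and -3.04 in KO hearts, against -2.36, -2.32 and -2.36 in WT hearts. The WT hearts lay within 0.036 of each other and every KO heart was below them, KO heart b by 3.08-fold against the WT mean. Per2 read -1.23, -2.55 and -1.89 in KO hearts, against -1.51, -1.88 and -1.49 in WT hearts, so KO heart a was above and KO hearts b and c below the WT range. Cry2 read 0.03, -0.13 and 0.12 in KO hearts, against 0.31, 0.32 and 0.70 in WT hearts, lower on all 3 KO hearts. Cry1 read -2.47, -2.29 and -3.23 in KO hearts, against -3.19, -3.05 and -2.96 in WT hearts. Cry1 was above the WT hearts on KO hearts a and b, which carry both the Xist and the thymus signal. On KO heart c it was just below the lowest WT heart. Per1 read 1.31, 1.33 and 1.18 in KO hearts, against 1.18, 1.52 and 1.32 in WT hearts, and Clock read 0.78, 0.78 and 1.04 in KO hearts, against 1.10, 0.91 and 1.02 in WT hearts. Per1 and Clock overlapped between the genotypes.

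KO heart minus WT heart called 0 of the 8 genes, where 0.664% of 17457 genes were called (limma, adjusted p under 0.05), and 1 of 8, Cry2, passed an unadjusted p under 0.05, where 15.7% of all genes did. KO minus WT was 0.70 ± 0.33 for Arntl (SE, n = 3 each, limma adjusted p = 0.346), -0.82 ± 0.36 for Per3 (limma adjusted p = 0.324) and -0.44 ± 0.16 for Cry2 (limma adjusted p = 0.30). For Cry1, Npas2, Per2, Clock and Per1 it was 0.40 ± 0.26, 0.24 ± 0.27, -0.26 ± 0.34, -0.15 ± 0.14 and -0.07 ± 0.14. Arntl, Per3 and Cry2 did not overlap between KO and WT hearts, as was so for 22.1% of all genes. The KO hearts and the WT hearts were on separate slides, so in heart the genotype cannot be told apart from the slide. KO hearts a and b also carry the thymus signal given above and KO heart a the lung signal. Their part in the clock values was not tested, and in bulk tissue fewer cells of a type and less RNA per cell cannot be told apart. On KO heart c, thymus markers summed to 0.301 and liver markers to 4.63, the highest liver sum of the hearts. There Arntl was 0.18 above and Per3 0.69 below the WT mean, with Arntl at -0.01, against -0.09 on the highest WT heart. The part of the liver signal was not tested either.

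Without KO heart c, 1 of the 8 genes, Cry1, was called (limma adjusted p = 0.0414), where 2248 of 18208 genes were. The KO hearts left, a and b, are those with Xist and thymus signal, so this call is not read as a test. Among the 35 further clock genes tested in heart, 0 were called, where 0.664% of all genes were, and 9 passed an unadjusted p under 0.05, where 15.7% did. There were 11 higher and 24 lower in KO. Their median change was -0.23, against -0.07 for all genes. Dbp read 5.65, 4.60 and 5.88 in KO hearts, against 6.23, 6.05 and 6.27 in WT hearts, lowest on KO heart b. Ciart read -3.35, -6.21 and -3.99 in KO hearts, against -3.69, -3.85 and -3.66 in WT hearts, again with KO heart b far below the rest. Nr1d1 read 1.06, 0.46 and 1.10 in KO hearts, against 1.34, 1.48 and 1.48 in WT hearts. Nr1d1, Nr1d2, Dbp, Tef and Hlf were each below every WT heart on all 3 KO hearts. Nr1d1, Tef and Hlf were so on all 3 KO kidneys as well, Hlf narrowly, at 2.95 on KO kidney a against 2.96 on WT kidney c. Other genes of the list, Fbxl21 and Csnk1a1, were also below every WT array in both tissues. Groups did not overlap for 22.1% of all heart genes and 21.5% of all kidney genes.

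**Figure D4:**
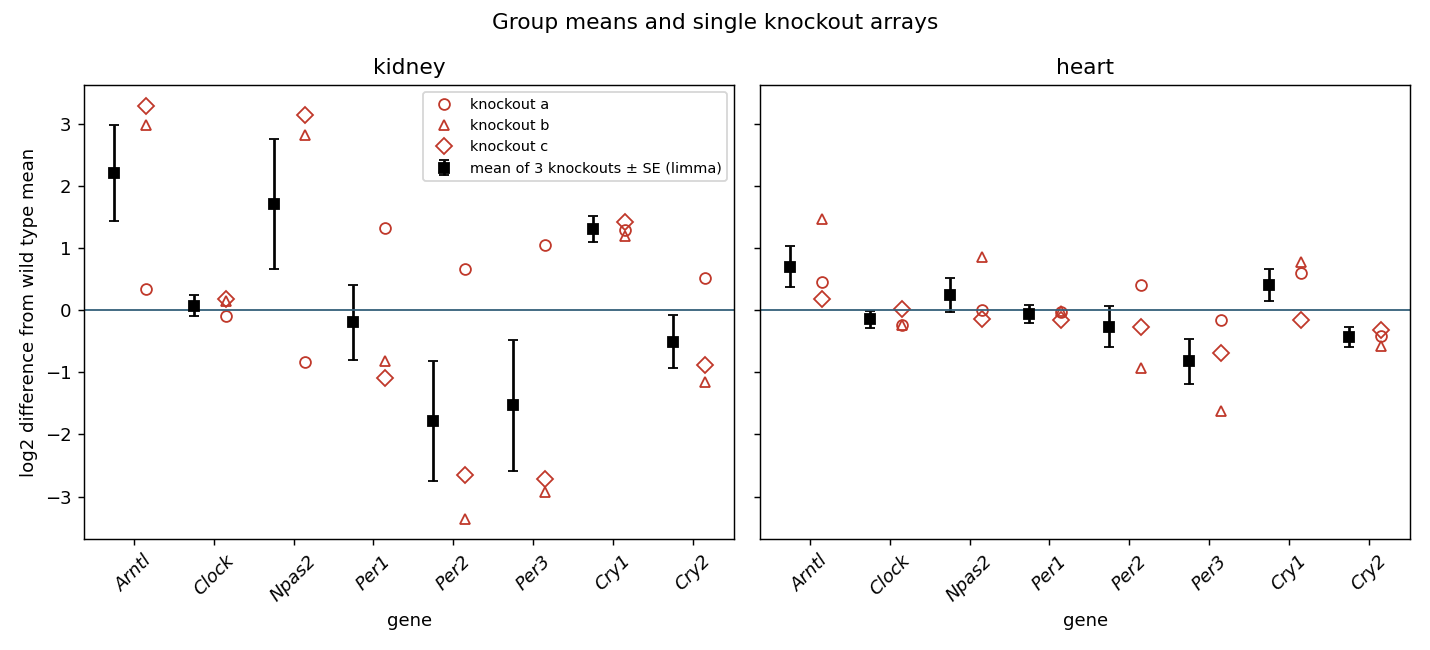
Log2 difference from the wild type mean (vertical axis) for the 8 core loop genes in kidney (left) and heart (right). Black squares are the mean of the 3 KO arrays with the limma SE and open red symbols are KO arrays a, b and c. In kidney the means of Arntl, Npas2, Per1, Per2, Per3 and Cry2 fall in a gap between KO array a and KO arrays b and c.

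The heart change minus the kidney change was called for 0 of the 8 genes, where 0.633% of 18495 genes were called. Cry1 alone passed an unadjusted p under 0.05, at -0.90 ± 0.35 (SE, limma adjusted p = 0.28), and 14.6% of all genes did. Without KO kidney a, Per2 was called, where 130 of 18720 genes were. The spread among KO kidneys was known when that array was left out, so this call is not read as a test. For Arntl the difference was -1.51 ± 0.94 and for Per2 1.52 ± 1.16. Both rest on the same spread among KO kidneys.

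The comparison of WT heart with WT kidney did not choose the genes and is tested here. The WT hearts were all on slide 4 and the WT kidneys on other slides, so tissue and slide cannot be told apart. In WT mice 5 of 8 core loop genes (62.5%) were called, where 64.5% of 17972 genes were called (limma, adjusted p under 0.05). Of the 5, 4 rose in heart, as 34.1% of all genes did, and 1 fell, as 30.3% did. The share of the core loop is near that of all genes. Heart minus kidney was 2.23 ± 0.19 for Cry1 (SE, n = 3 each, limma adjusted p = 4.0e-05) and 1.80 ± 0.25 for Arntl (limma adjusted p = 5.05e-04). It was 1.02 ± 0.14 for Per1 (limma adjusted p = 5.54e-04) and 0.75 ± 0.17 for Cry2 (limma adjusted p = 0.00554). Per2 was lower in heart, at -0.82 ± 0.18 (limma adjusted p = 0.00555). Cry1 was not well above background on WT kidney b, so it entered the test only through WT heart, where it was high. Its call, 1 of the 5, is therefore not read as a test, nor is its call in the next fit. The WT hearts and WT kidneys did not overlap for these 5 genes, nor for 71.6% of all genes. In a fit of all 12 arrays only Arntl and Cry1 of the 8 were called, where 10724 of 17972 genes were. In that fit Per1, Cry2 and Per2 were not called (limma adjusted p = 0.096, 0.0871 and 0.413). Per3, Npas2 and Clock were at -0.44 ± 0.34, -0.13 ± 0.35 and -0.07 ± 0.14 and were not called (limma adjusted p = 0.287, 0.773 and 0.698). With no hour of collection in the labels, a difference in level cannot be told apart from one in timing.

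Of the 36 further clock genes 16 (44.4%) were called between WT heart and WT kidney, where 64.5% of all genes were, with 7 higher and 9 lower in heart. Higher in heart were Timeless (2.65 ± 0.12), Bhlhe41 (2.44 ± 0.19), the PER kinase gene Csnk1e (2.37 ± 0.15), Nfil3 (1.71 ± 0.21), Nr1d1 (0.83 ± 0.13) and Nampt (0.46 ± 0.14). Bhlhe41 was not well above background on WT kidney b. Rorb read higher in heart, at -6.14 in WT heart and -8.27 in WT kidney. In WT kidney Rorb was not well above background on any of the 3 arrays. Lower in heart were Hlf (-2.45 ± 0.17), the ligase genes Fbxl21 (-2.31 ± 0.17) and Fbxw11 (-1.31 ± 0.17), Tef (-1.23 ± 0.14), Rora (-0.89 ± 0.13), Usp2 (-0.77 ± 0.24), Tfrc (-0.76 ± 0.22) and Ciart (-0.62 ± 0.17). The Arntl paralogue Arntl2 read lower in heart, at -8.67 in WT heart and -4.26 in WT kidney. In WT heart Arntl2 was not well above background on any of the 3 arrays. For these 2 genes the bright group's mean was also set against the lowest signal well above background on each dim array. The gene's own reading was used where it was higher. The difference was then 1.35-fold for Rorb and 5.39-fold for Arntl2. These folds are not strict lower limits, since Cry1, at -5.60 on WT kidney b, was not well above background either. Rorb, Arntl2 and Bhlhe41 entered the test only through the group where they were high. Their calls are counted among the 16 but are not read as a test. The highest adjusted p among the 16 was 0.0245 (limma). Dbp, Nr1d2 and Bhlhe40 were not called, at -0.22 ± 0.21, -0.27 ± 0.17 and 0.41 ± 0.18.

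**Figure D5:**
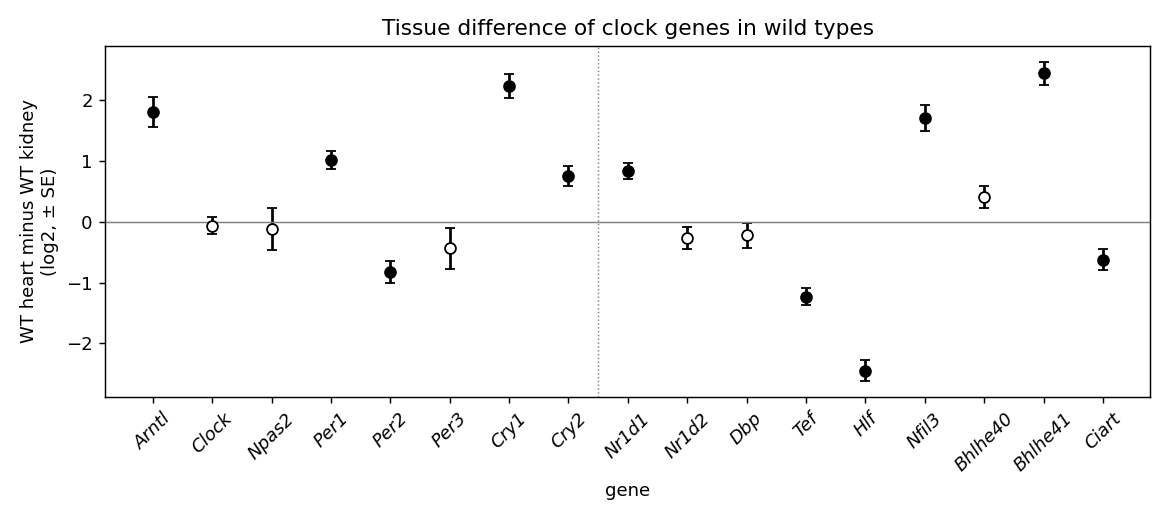
Log2 difference, WT heart minus WT kidney, with the limma SE (vertical axis) for the 8 core loop genes (left of the dotted line) and 9 linked clock genes (right). Filled points were called at an adjusted p under 0.05, among them Arntl, Per1, Per2, Cry1 and Cry2.

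Across the 4 groups the order of levels differed from gene to gene. Arntl averaged 0.51 ± 0.68 in KO heart, -0.19 ± 0.11 in WT heart, 0.22 ± 1.62 in KO kidney and -1.99 ± 0.49 in WT kidney (SD, n = 3). It was thus highest in KO heart, then KO kidney, WT heart and WT kidney, and of the neighbours in this order only WT heart and WT kidney were clear of each other, since KO kidney ran from -1.64 to 1.30. Cry1 averaged -2.67 ± 0.50 in KO heart, -3.07 ± 0.11 in WT heart, -3.997 ± 0.11 in KO kidney and -5.30 ± 0.33 in WT kidney. That is also its order from high to low, and only KO heart and WT heart overlapped. Per2 averaged -1.89 ± 0.66 in KO heart, -1.63 ± 0.22 in WT heart, -2.59 ± 2.15 in KO kidney and -0.81 ± 0.22 in WT kidney. It was highest in WT kidney, clear of WT heart, and the lower neighbours overlapped. Per3 averaged -3.17 ± 0.74 in KO heart, -2.35 ± 0.02 in WT heart, -3.44 ± 2.23 in KO kidney and -1.91 ± 0.72 in WT kidney, in the same order as Per2. Per1 averaged 1.27 ± 0.08 in KO heart, 1.34 ± 0.17 in WT heart, 0.13 ± 1.32 in KO kidney and 0.32 ± 0.07 in WT kidney, so both hearts stood above WT kidney. Npas2 averaged -3.23 ± 2.21 in KO kidney and between -5.06 and -4.82 in the other groups. Clock averaged between 0.86 and 1.15 in all 4 groups.

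The genes whose kidney profiles lay nearest to those of Arntl and Per2 were looked up by the root mean square difference of log2 profiles over the 6 kidneys, each centred on its mean, among 14574 genes. Nearest to Arntl were Npas2 (0.46), Sema6c (0.54), A1cf (0.59), H1f10 (0.66) and Nfil3 (0.66), where the median gene was at 1.52. Nearest to Per2 were Per3 (0.51), Dbp (0.64), Nr1d2 (0.70), Dnah5 (0.73) and Gulo (0.74), where the median gene was at 1.55. Of these 10 places, 5 were taken by core loop or listed clock genes, which were 8 and 34 of the 17217 genes tested in kidney. The genes were chosen with the spread over these kidneys known, so these places are not read as a test. Sema6c read -5.16, -2.81 and -3.13 in KO kidneys, against -4.86, -6.56 and -4.64 in WT kidneys, highest on KO kidneys b and c. In heart, among 14834 genes, the nearest to Arntl were Dut (0.09), Ccnjl, H2bu2, Hmgn2 and Gtf2h4 (0.11), and the nearest to Per2 were Grk3 (0.07), Adora1, Grtp1, Gbe1 and Mybph (0.12). Of these 10 heart neighbours 0 were core loop or listed clock genes. Over KO hearts a, b and c the thymus markers followed the order of Arntl, at 73.2, 150 and 0.301, and their part in the heart profiles was not tested.

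The core loop genes were read by single probes of 60 bases, 1 chosen per gene as the brightest over the 12 arrays. By the build mm7 positions in the files, the chosen probes lie at chr7:109229489-109229548 for Arntl, chr1:91323914-91323973 for Per2 and chr4:149994689-149994748 for Per3. The chosen Cry1 probe lies at chr10:84685114-84685173. A second Per2 probe at chr1:91347406-91347465 read -5.60, -4.32 and -4.26 in KO kidneys, against -4.44, -4.29 and -4.54 in WT kidneys. It did not follow the first Per2 probe, with KO kidney a lowest and KO kidneys b and c close to the WT kidneys. Of 4 Clock probes, the second brightest read -0.55, -0.77 and -0.66 in KO kidneys, against -1.06, -1.07 and -0.87 in WT kidneys, so it separated the genotypes where the brightest did not. The second probes of Cry1 and Cry2 were each above background on 1 of 12 arrays. Arntl, Npas2, Per1 and Per3 had 1 probe each.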

How the data were processed

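Each of 12 arrays was deposited as a scanner file of spot intensity, made by the authors with Feature Extraction from Agilent, whose version is 9.5.3.1 in the file headers and 9.1 in the submitters' processing notes. The authors also deposited a table of log2 values, centred within a tissue, which was used as an alternative after matching its columns to the arrays they follow. The background-subtracted processed signal was put on a log2 scale relative to the 75th percentile of each array's probes, an intensity of 451 to 878. Outlier spots were left out and spots of a probe averaged. Gene names were matched to RefSeq through the accession (22951 probes), the symbol (6659) or a synonym (3109), and 8455 probes kept the files' name. A gene was tested with its brightest probe where all 3 arrays of a group had it well above background. Groups of the same comparison were fitted with limma 3.58.1 in R 4.3.3, with Benjamini-Hochberg adjustment at 0.05, and the script was tested on simulated data. The number of arrays limits the precision, and an exact permutation of 3 against 3 cannot go below a two-sided p of 0.1. The labels do not tie arrays to mice, so p-values measure only the spread between these samples. Every core loop gene, each further clock gene called, 9 linked clock genes, Slc29a1 and the 5 nearest profiles per query were named by rule. Members and lists were chosen with earlier results of these data known. Deviations from the group mean correlated across genes at 0.389, 0.187 and 0.259 for same-letter hearts and at 0.104, -0.012 and -0.146 for same-letter kidneys. The deviations of a group depend on each other through its mean, so a pairing of the hearts by letter is not established.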

Additional observations from a re-analysis of the deposited data

How the results depend on the processing

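In kidney the count of core loop genes called, 0 of 8, became 3 within the slide that holds both genotypes, which is also all that a slide block can compare (3 calls), and 2 with the array with Xist signal left out. Leaving out 1 array at a time gave 0 to 2 calls in kidney (2 without KO kidney a), 0 to 1 in heart (1 without KO heart c), 0 to 1 for the heart change minus the kidney change (1 without KO kidney a) and 5 to 7 for WT heart minus WT kidney (7 without WT kidney b, Npas2 and Per3 being added). Without WT kidney b, 11826 of 18307 genes were called for WT heart minus WT kidney. With all 12 arrays in the fit WT heart minus WT kidney called 2, Arntl and Cry1, where 10724 of 17972 genes were called. In that comparison the Clock difference, -0.068, turned to 0.030 with quantile normalization and 0.11 with the mean of all probes, and ran from -0.12 to 0.019 with 1 array left out at a time, while Npas2, -0.13, ran from -0.54 to 0.17. The cause was not tested. With the letter as a replicate block 0, 0, 0 and 5 core loop genes were called in kidney, heart, their difference and WT heart minus WT kidney, so the block changed no core loop call, while the count over all genes went to 2 in kidney, against 20 without it, and to 80 in heart, against 116. Over all genes kidney calls were 103 with median scaling, 0 with normexp (597 at an unadjusted p under 0.05), 50 with the mean of all probes, 11 in the deposited table, 4 with no filter, 273 with the slide block, 223 within the slide and 81 without Xist arrays. Heart calls were 66 with quantile normalization, 17 with normexp, 61 with no filter, 22 with a filter on every array and 277 without Xist arrays, where 1 KO heart is assumed to vary like the WT hearts. Calls of the difference were 117 (103 higher, 14 lower), 120 with quantile normalization (93 higher, 27 lower), 138 with median scaling (106 higher, 32 lower), 0 with normexp (1074 at an unadjusted p under 0.05), 78 with no filter, 49 with a filter on every array and 75 with the replicate block. With 1 array left out the calls ran from 1 to 93 in kidney, 26 to 2248 in heart and 40 to 1491 for the difference. Median scaling put the median gene at -0.23 in heart, against -0.07, at -0.18 for the difference, against 0.03, and at -0.06 for WT heart minus WT kidney, against 0.07, and normexp put it at 0.08 in kidney, against -0.07, and at -0.16 for the difference. Dim probes, such as those of Npas2, Cry1 and Ciart in kidney, limit what can be read near background.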
